A study of Mus musculus with 15 samples.

Results

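Notch receptors are surface proteins that are cut when a neighbouring cell presents a ligand, and the released intracellular part enters the nucleus and joins the DNA-binding protein Rbpj to switch on target genes. In blood formation the pathway directs lymphoid progenitors into the T-cell lineage, and activating mutations of Notch1 are common in T-cell acute leukemia of mice and humans. Well-known targets in T-cell precursors are Hes1, Dtx1 and Nrarp, and Hey1 and Heyl are targets best known from the cardiovascular system. The 9 genes described here are the receptors Notch1, Notch2 and Notch3, the nuclear partner Rbpj, and the targets Hes1, Hey1, Heyl, Dtx1 and Nrarp. They were taken by gene symbol from the array's probe list, which gave 12 probes out of 25697 probes for 18115 genes. Rbpj had 3 probes, Notch2 had 2 and the other 7 genes had 1 each.

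The RNA came from unsorted spleen cells of mice of a Cbx7-overexpression model, in which a polycomb protein is overexpressed, and every mouse in the comparisons carries it. The labels give neither the vector or promoter that drives Cbx7, nor the recipient mice, nor an age. The groups are 1 mouse with undifferentiated leukemia (mouse 4-3), 4 mice with erythroid leukemia (mice 2-3, 5-5, 2-3-2 and 2-3-3) and 7 mice with T-cell leukemia (mice 2, 5, 4-1, 2-2, 5-1, 4-2 and 5-3). The names 2-3-2 and 2-3-3 extend the name 2-3, so 3 of the 4 erythroid mice share a name stem; the labels give no relation between them, and each was counted as 1 mouse. T-cell mouse 5-1 and erythroid mouse 5-5 were each run on 2 arrays, which were averaged, and a further array with no mouse or type in its labels entered no comparison.

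Values are log2 of the background-corrected and quantile-normalised bead signal, and a probe is called detected where its detection p-value against the array's negative controls was under 0.05. On this scale signals near 4.5 are those of undetected probes. Levels of different probes cannot be set against each other, so every comparison below is of 1 probe between mice. The labelled arrays detected between 7382 and 12944 probes, and the 2 weakest, with 7382 and 7554, both belong to erythroid leukemias (the second array of mouse 5-5 and the array of mouse 2-3-2). A list of 8 T-cell markers had a mean log2 signal of 5.02 to 6.15 in erythroid spleens and 7.41 to 9.40 in T-cell spleens. The 8 erythroid markers had a mean of 9.17 to 9.94 in erythroid spleens and 4.82 to 8.71 in T-cell spleens. The labelled types are therefore visible in the RNA, but T-cell spleens also held erythroid RNA. In the undifferentiated spleen the T-cell list stood at 5.48 and the erythroid list at 8.70.

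The probe sequences were not used here, so the regions before 4 of the genes are shown instead. They are the tested members whose signal was highest in T-cell mouse 5-1 among the T-cell mice. Each line gives the 250 bases before the annotated start of the gene, read 5′ to 3′ in the direction of transcription, from RefSeq on the build GRCm38.p6, with the CpG pairs in capitals. CpG-rich promoters of this kind are, as background, the sort of region where polycomb complexes are often found. These are chr2:26503823-26504072 on the minus strand for Notch1, chr17:32166891-32167140 on the minus strand for Notch3, chr5:120711670-120711919 on the minus strand for Dtx1, and chr2:25180508-25180757 on the plus strand for Nrarp.
Notch1: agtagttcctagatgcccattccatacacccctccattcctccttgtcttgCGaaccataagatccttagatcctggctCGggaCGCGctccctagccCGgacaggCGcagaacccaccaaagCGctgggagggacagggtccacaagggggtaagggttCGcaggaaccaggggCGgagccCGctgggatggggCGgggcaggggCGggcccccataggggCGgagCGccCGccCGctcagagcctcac
Notch3: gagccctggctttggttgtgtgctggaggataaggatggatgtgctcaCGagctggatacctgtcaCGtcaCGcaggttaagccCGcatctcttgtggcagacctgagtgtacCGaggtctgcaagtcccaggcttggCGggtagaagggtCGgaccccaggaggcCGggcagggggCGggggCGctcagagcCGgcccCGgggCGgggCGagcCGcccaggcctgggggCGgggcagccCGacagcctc
Dtx1: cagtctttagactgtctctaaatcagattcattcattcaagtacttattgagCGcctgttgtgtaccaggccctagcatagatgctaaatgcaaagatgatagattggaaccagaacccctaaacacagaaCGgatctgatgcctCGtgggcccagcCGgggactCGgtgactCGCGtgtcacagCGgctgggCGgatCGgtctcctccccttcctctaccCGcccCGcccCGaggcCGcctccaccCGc
Nrarp: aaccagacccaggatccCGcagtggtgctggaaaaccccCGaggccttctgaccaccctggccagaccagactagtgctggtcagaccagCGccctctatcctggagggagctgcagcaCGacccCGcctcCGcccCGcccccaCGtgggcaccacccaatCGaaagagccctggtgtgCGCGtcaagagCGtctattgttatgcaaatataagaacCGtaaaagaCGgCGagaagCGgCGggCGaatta

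These stretches held 16 CpG pairs for Notch1, 17 for Notch3, 15 for Dtx1 and 18 for Nrarp, against a median of 6 over the 32851 promoters of the table. As many as in Nrarp were found in 21.7% of all promoters, and as many as in Dtx1 in 27.3%. The core motif that Rbpj binds, TGGGAA, was searched on both strands from 250 bases before to 50 bases after the start, and 25.6% of all promoters held it. Of the 6 members with a promoter in the table (Notch1, Notch2, Notch3, Rbpj, Dtx1 and Nrarp), Rbpj itself held matches, 2 in 1 of its listed starts and 1 in the other, and the windows of the other 5 members held none. The variant GTGAGAA, found in 4.59% of promoters, was in no member's window.

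Notch1 was lower in erythroid than in T-cell leukemia, and Nrarp was higher. The log2 signal of Notch1 was 4.85, 4.56, 4.46 and 4.79 in erythroid mice 2-3, 5-5, 2-3-2 and 2-3-3. In T-cell leukemia it was 6.50 in mouse 2, 6.33 in mouse 5, 5.13 in mouse 4-1, 6.04 in mouse 2-2, 8.83 in mouse 5-1, 6.69 in mouse 4-2 and 6.27 in mouse 5-3. The receptor was thus detected on 0 of 5 erythroid arrays and on 8 of 8 T-cell arrays. Erythroid mouse 2-3 only just missed the cutoff, with a detection p-value of 0.0526 and a raw intensity of 138. T-cell mouse 4-1 passed it with a detection p-value of 0.0263 and a raw intensity of 136.32. The lowest signal that counted as detected was 6.09 on the array of mouse 2-3-2 and 6.15 on the second array of mouse 5-5. Both exceed the 5.13 of T-cell mouse 4-1 and the 6.04 of mouse 2-2, so these arrays set no order against those T-cell mice. The mean was 4.66 ± 0.18 in erythroid mice (SD, n = 4) and 6.54 ± 1.13 in T-cell mice (SD, n = 7). The difference was -1.88 ± 0.51 (SE) on the log2 scale, with an adjusted p of 0.0367 in the limma fit over 12 mice. Since no erythroid array detected the probe, that difference is given as a bound. Measured against the lowest detected signals of the erythroid arrays, mean Notch1 was at least 2.23-fold lower in erythroid leukemia. The T-cell mean in this bound includes mouse 5-1 and was 6.16 without it, so the bound depends in part on that mouse. In unsorted spleen, fewer cells of a type and less RNA per cell cannot be told apart, and here the T-cell markers fell with Notch1, 7 of the 8 passing the test; their part in the result was not tested.

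Among T-cell mice the order of Notch1 signals had a single mouse at each end. Mouse 5-1 was above the rest, mouse 4-1 was below them, and the 5 mice between, from 6.04 to 6.69, lay closer to each other than the SD of the group. Without mouse 5-1 the erythroid minus T-cell difference was -1.50 ± 0.30 (SE), with a limma adjusted p of 0.00901.

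Nrarp, a small ankyrin-repeat protein that is induced by Notch and dampens it, went the other way. Its signal was 6.12, 6.54, 6.34 and 6.45 in erythroid mice 2-3, 5-5, 2-3-2 and 2-3-3. In T-cell leukemia it was 5.19 in mouse 2, 4.95 in mouse 5, 5.53 in mouse 4-1, 5.40 in mouse 2-2, 6.29 in mouse 5-1, 5.33 in mouse 4-2 and 5.39 in mouse 5-3. The groups overlapped through mouse 5-1 alone, whose value lay between those of erythroid mice 2-3 and 2-3-2, and the probe was detected on all 14 labelled arrays. Nrarp rose by 0.93 ± 0.25 (SE) on the log2 scale, or 1.90-fold, with a limma adjusted p of 0.0346. Its mean was 6.37 ± 0.18 in erythroid mice (SD, n = 4) and 5.44 ± 0.42 in T-cell mice (SD, n = 7). The erythroid markers moved with Nrarp: all 8 were higher on average in erythroid spleens and 5 passed the test. Whether they have a part in it was not tested. Both weak arrays count among the erythroid values: on the second array of mouse 5-5 the raw Nrarp intensity was 112.62 and its log2 signal 6.90, against 156.09 and 6.19 on that mouse's first array.

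Together 2 of the 7 tested members passed the threshold, 1 in each direction, while the background was 10.3% of 10474 genes, with 3.86% higher and 6.43% lower. A count of 2 in 7 is too small to be set apart from that background. The calls were not firm. Of 27 other settings, 2 repeat the reported values because a group of 1 mouse adds nothing to the spread. In the other 25 Notch1 kept its sign in all and passed in 10, and Nrarp kept its sign in all and passed in 9. Without the 2 weakest arrays the adjusted p was 0.0784 for Notch1 and 0.0813 for Nrarp, with differences of -1.86 and 0.82. Within arrays 1 to 8 the differences were -1.92 and 0.73, and within arrays 9 to 16 they were -2.63 and 0.82, none of them past the threshold. The array numbers are the last digits of the array descriptions, and no label says whether they mark a run order or a batch.

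**Figure D1:**
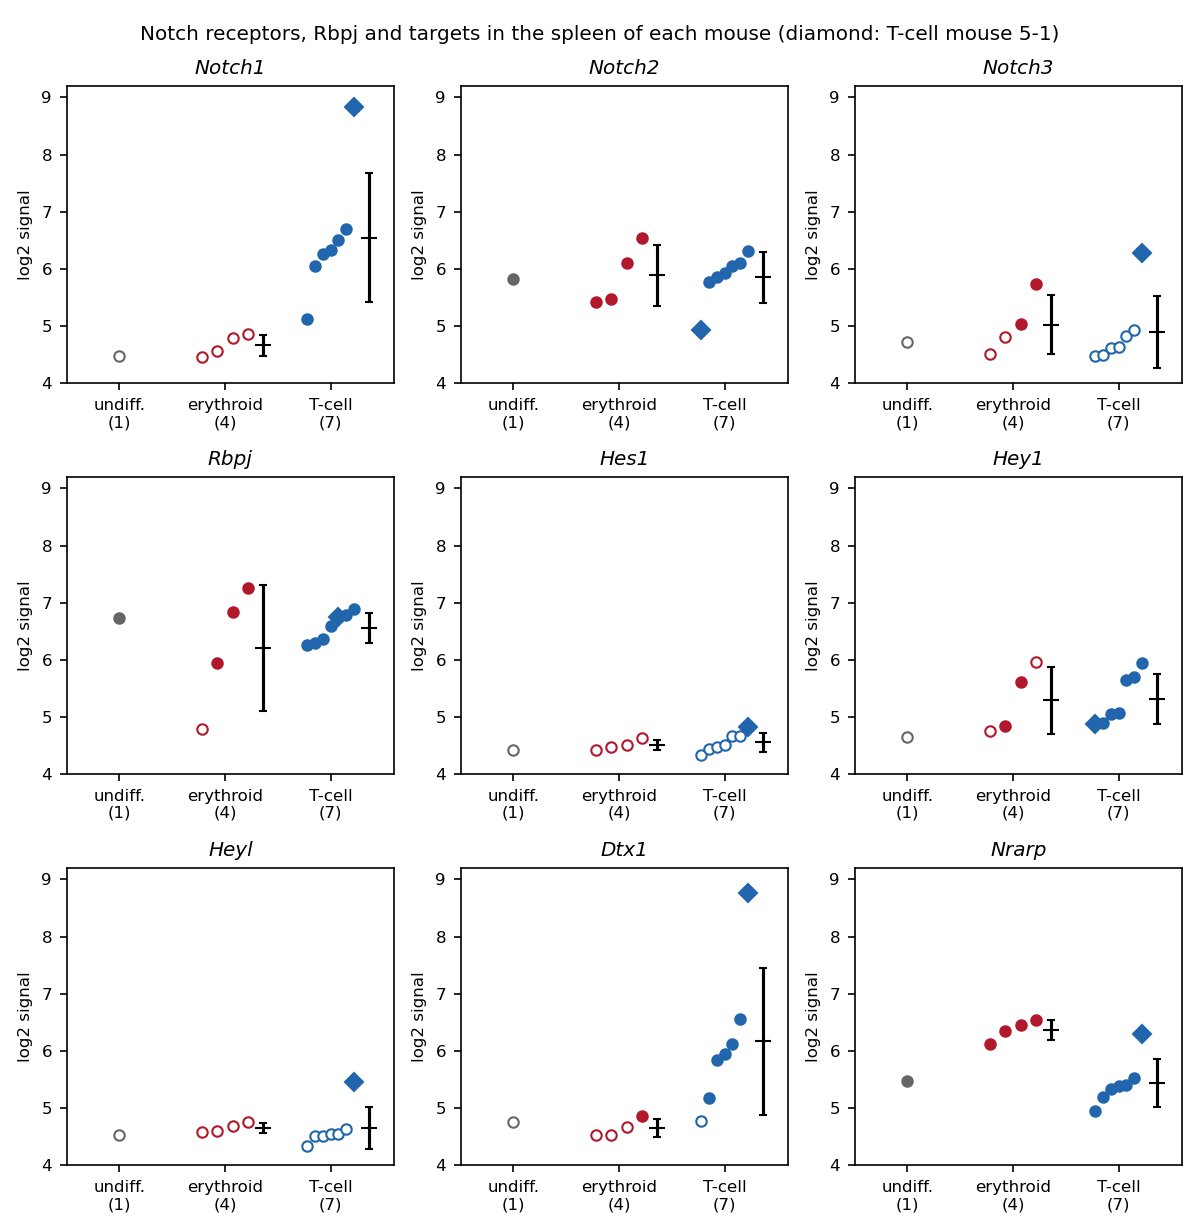
Log2 signal (y axis, normalised bead signal) of each of the 9 genes in each mouse of the undifferentiated, erythroid and T-cell groups (x axis, number of mice in brackets); filled points were detected on at least 1 array of the mouse, open points on none, the diamond is T-cell mouse 5-1, and bars are the mean ± SD of groups of 4 and 7 mice. Notch1 is undetected in erythroid mice, with values of 4.46 to 4.85, and runs from 5.13 to 8.83 in T-cell mice. Mouse 5-1 is highest of its group for Notch1, Notch3, Heyl, Dtx1 and Nrarp. Its Hes1 value of 4.82, detected on 1 of 2 arrays, is also the highest but lies at the level of undetected probes.

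Dtx1, a ubiquitin ligase that binds the Notch intracellular part and is a target in early T cells, followed the direction of Notch1 without passing the test. Its signal was 4.86, 4.53, 4.52 and 4.67 in erythroid mice 2-3, 5-5, 2-3-2 and 2-3-3. In T-cell leukemia it was 6.56 in mouse 2, 5.95 in mouse 5, 5.17 in mouse 4-1, 4.77 in mouse 2-2, 8.76 in mouse 5-1, 5.84 in mouse 4-2 and 6.12 in mouse 5-3. It was detected on 1 of 5 erythroid arrays and on 7 of 8 T-cell arrays, mouse 2-2 being the T-cell mouse without detection. The detected erythroid value, in mouse 2-3, was below every detected T-cell value, and the undetected values have no order. The difference was -1.52 ± 0.58 (SE), 95% interval -2.77 to -0.28, and the limma adjusted p was 0.107. It missed the threshold in all 27 other settings as well, and came closest to it without mouse 5-1, at -1.09 and an adjusted p of 0.0510.

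The other receptors had no called difference between these types. Notch2, a receptor best known in blood from marginal zone B cells of the spleen, was detected on all 14 labelled arrays with the probe used for the test. Its signal ran from 5.43 to 6.53 in erythroid mice and from 4.94 to 6.31 in T-cell mice. The difference was 0.03 (95% interval -0.61 to 0.68). The highest erythroid value was that of the weak array of mouse 2-3-2. Without the 2 weakest arrays the difference was -0.40, and with median scaling it was -0.46, neither past the threshold. The second Notch2 probe, detected on 7 of 14 arrays, gave -0.31 with a limma adjusted p of 0.414. Notch3, known from vascular smooth muscle and from immature T cells, was detected on 4 of 14 arrays: those of erythroid mice 2-3 (5.04) and 2-3-3 (5.73) and both arrays of T-cell mouse 5-1 (6.27). The other 6 T-cell mice lay at 4.47 to 4.94 without detection, and the mean difference between types was 0.13 (95% interval -0.63 to 0.89).

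Rbpj, the DNA-binding partner of all Notch receptors, was measured by 1 of its 3 probes. The other 2 probes were detected on none of the labelled arrays, so they show no pattern between mice. With the detected probe the signal was 6.84, 5.94, 4.78 and 7.26 in erythroid mice 2-3, 5-5, 2-3-2 and 2-3-3, and between 6.25 and 6.89 in T-cell mice. The spread among erythroid mice was the wide one, at 1.10 (SD) against 0.26 among T-cell mice, and the arrays on which the probe was not detected were the 2 weakest. On the 2 arrays of mouse 5-5 it was 6.62 on the first and 5.26 on the weak one. The difference between types was -0.35 (95% interval -1.19 to 0.48). Without the 2 weakest arrays it was 0.35, also not past the threshold.

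Of the Hes and Hey repressors, Hey1 was tested and Hes1 and Heyl were too dim. Hey1 was 4.75, 4.83, 5.96 and 5.61 in erythroid mice 2-3, 5-5, 2-3-2 and 2-3-3, and 4.88 to 5.95 in T-cell mice. It was detected on 2 of 5 erythroid arrays, those of mouse 2-3-3 and the first of mouse 5-5, and on 8 of 8 T-cell arrays, so both ends of the erythroid range are undetected values. The fitted difference of -0.02 (95% interval -0.68 to 0.64) rests largely on them. Hes1, the canonical Notch target in T cells, was detected on 1 of 14 labelled arrays, the second array of mouse 5-1. It lay at 4.42 to 4.63 in erythroid mice and 4.33 to 4.82 in T-cell mice, which is the level of undetected probes. Heyl was detected on both arrays of mouse 5-1 (5.46 on average) and on no other labelled array. These 2 genes failed the filter on dim probes and have no test.

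**Figure D2:**
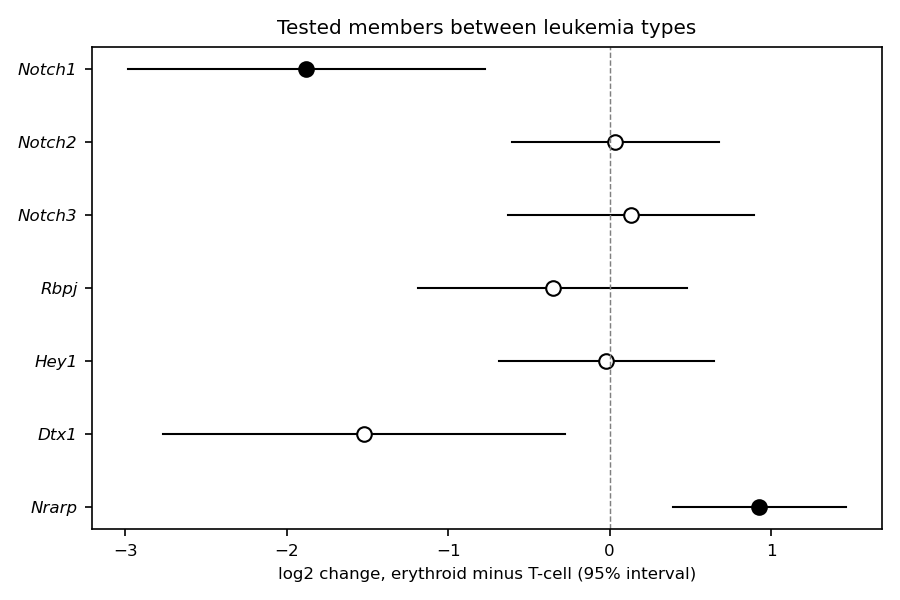
Erythroid minus T-cell difference in log2 signal (x axis) for the 7 tested members (y axis), with 95% intervals from the limma fit over 4 erythroid and 7 T-cell mice; filled points passed an adjusted p of 0.05. Only Notch1 (-1.88) and Nrarp (0.93) are filled, and the interval of Dtx1 also lies below 0 although its adjusted p is 0.107.

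T-cell mouse 5-1 stood apart from the other T-cell mice in the receptor Notch1 and in several targets. It was at 8.76 for Dtx1, against 4.77 to 6.56 in the other 6 T-cell mice. It was at 8.83 for Notch1, against 5.13 to 6.69, and at 6.27 for Notch3, against 4.47 to 4.94. It was at 6.29 for Nrarp, against 4.95 to 5.53, and at 5.46 for Heyl, against 4.34 to 4.63. Notch1 and Nrarp were detected in all 6 of the other T-cell mice and Dtx1 in 5, while Notch3 and Heyl were detected in 0 of them. Relative to the mean of the other 6, mouse 5-1 was higher by 3.02 in Dtx1 (8.13-fold), 2.67 in Notch1 (6.35-fold) and 0.99 in Nrarp on the log2 scale. Against the lowest detected signals of the other T-cell arrays, it was at least 2.49-fold higher in Notch3 and at least 1.42-fold higher in Heyl. Being 1 mouse, it has no test.

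Not every member was high in mouse 5-1. Notch2 was the lowest of the T-cell mice there, at 4.94 against 5.76 to 6.31, and its second probe was 4.73 and not detected, against 4.65 to 5.58. Hey1, at 4.88, lay at the bottom of the T-cell range of 4.88 to 5.95. Rbpj, at 6.74, lay inside the range of 6.25 to 6.89. The receptor family thus moved in opposite directions in this mouse, with Notch1 and Notch3 high and Notch2 low.

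Both arrays of mouse 5-1, 1 among arrays 1 to 8 and 1 among arrays 9 to 16, show the same pattern. On its first array Notch1 had a raw intensity of 780.18 with a standard error of 47.01 over 38 beads, against 136.32 to 221.75 on the other 4 T-cell arrays among arrays 1 to 8. On its second array it had 458.37 with a standard error of 16.82 over 40 beads, against 146.95 and 158.53 on the other 2 T-cell arrays among arrays 9 to 16. Dtx1 likewise had 690.34 and 473.75 on the 2 arrays, against 132.13 to 207.21 and 129.87 to 142.30. These intensities precede any background correction or normalization, so the excess is in the deposited signal itself. Within arrays 1 to 8 the normalised excess over the other T-cell arrays was 2.77 for Notch1, 2.96 for Dtx1 and 0.80 for Nrarp. Within arrays 9 to 16 it was 2.40 for Notch1, 2.96 for Dtx1 and 1.15 for Nrarp. Notch3 was at least 2.33-fold higher in the first set and at least 2.58-fold in the second, and Heyl at least 1.79-fold and at least 1.10-fold, all as bounds against arrays that did not detect them. Rbpj was 0.50 above in the first set and -0.04 in the second.

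**Figure D3:**
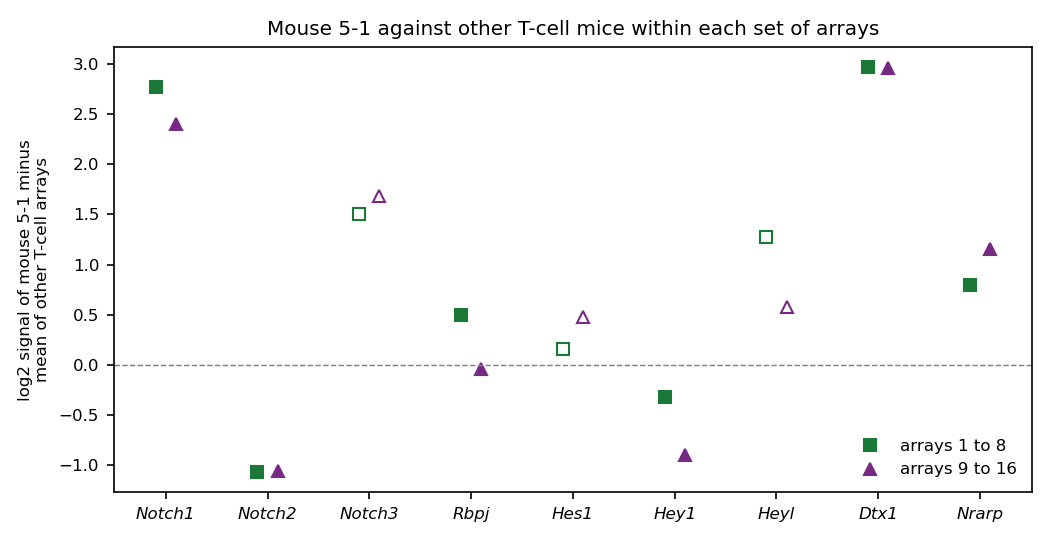
Log2 signal of T-cell mouse 5-1 minus the mean of the other T-cell arrays (y axis) for each gene (x axis), with its first array set against arrays 1 to 8 (squares, 4 other arrays) and its second against arrays 9 to 16 (triangles, 2 other arrays); open symbols (Notch3, Hes1 and Heyl) are measured against arrays that did not detect the gene and show no exact difference. Notch1, Dtx1 and Nrarp lie above 0 in both sets, Notch2 and Hey1 below 0 in both, and Rbpj has both signs.

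Across all genes, 1.28% were at least 1 log2 unit higher in mouse 5-1 than in every other T-cell mouse, and 3 of the 7 tested members were: Notch1, Notch3 and Dtx1. The members that led all T-cell mice there were 4 of 7, Nrarp being the fourth, where 14.9% of genes did so. Notch1, Notch3 and Dtx1 also had the highest value of all 12 mice in mouse 5-1, as did 6.63% of genes. These genes were put on the list with earlier results of these data known, so the shares describe them and test nothing. Notch3, detected on 4 of 14 labelled arrays, reached the 3 arrays that the filter needs only through the 2 arrays of mouse 5-1. The mean of the T-cell markers was 9.09 in mouse 5-1, inside the 7.41 to 9.40 of the other T-cell mice, and its erythroid markers, at 8.34, also lay inside the others' range of 4.82 to 8.71. Pdgfrb, a receptor of the mural cells of blood vessels in which Notch3 and Heyl are known to be active, was 7.09 in mouse 5-1 and 4.35 to 4.87 in the other T-cell mice. Other genes of its list were not high there: Acta2 of smooth muscle was 9.42, inside 8.83 to 10.32, Col1a1 of fibroblasts was 4.43, against 4.67 to 6.47, and the endothelial receptor Tek was 4.42, against 4.47 to 5.21. The endothelium and stroma list of 10 markers as a whole stood at 5.45 there, against 5.08 to 5.55, with Cdh5, Kdr and Emcn detected on no labelled array, and its part in the result was not tested. The mean of the dendritic cell list was lower in mouse 5-1 than in the others, at 5.88 against 6.49 to 7.04. Of its genes, H2-DMb2 was far below the others, at 5.39 against 7.41 to 8.99, and Flt3 was barely below them. Itgax, Siglech and Zbtb46 lay inside the others' ranges, and Xcr1, detected on no labelled array, lay above.

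The single undifferentiated spleen, mouse 4-3, had no detected Notch1, like the erythroid spleens, and a Nrarp signal in the T-cell range. Notch1 was 4.47 and not detected, below all 7 T-cell mice, which puts it at least 2.95-fold below the T-cell mean. Dtx1 was 4.76 and not detected, at least 2.27-fold below the T-cell mean. Both T-cell means include mouse 5-1, and without it they were 6.16 for Notch1 and 5.73 for Dtx1. Nrarp was 5.47, inside the T-cell range and below the erythroid range of 6.12 to 6.54. Notch2 was 5.83 and Rbpj 6.73, both inside the ranges of both other types, and Notch3 and Hey1 were not detected. Against T-cell leukemia 0 of the 7 tested members passed, with a background of 0.0191% (2 genes), and against erythroid leukemia 0 of 7 passed, with a background of 0.00955% (1 gene), both in limma. At an unadjusted p under 0.05, 1 member (Notch1, -2.07) was counted against T-cell leukemia and 0 against erythroid leukemia, among 756 and 494 genes. With 1 mouse in the group, the spread was borrowed from the other groups.

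The rest of the pathway was followed in 68 further genes, of which 64 were on the array and 47 were tested. Between erythroid and T-cell leukemia 4 of the 47 fell, 0 rose and 43 did not pass, where 6.43% of all genes fell and 3.86% rose. Such a count is near the background and says nothing particular about the pathway. Their median log2 difference was -0.10, against -0.03 over all genes. Of the ligands none passed the filter: Dll1, Dll3, Dll4 and Dlk1 were detected on no labelled array, and Jag1 and Jag2 on 2 each. The 9 tested genes of receptor cleavage, the 13 of the nuclear complex and its corepressors and the 6 of turnover and inhibition each had 0 past the threshold. Their differences ran from -1.21 to 0.99, and 0, 5 and 2 of them had an unadjusted limma p under 0.05. Over all genes 2949 of 10474 did so, and counts this small say nothing particular about these lists. The ligand and cleavage genes were therefore either undetected or without a called difference.

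The 4 that fell were a receptor modifier (1 of 9 tested genes of Notch glycosylation and ligand ubiquitination), a Hes factor (1 of 2 tested) and 2 genes of the T lineage (of 8 tested further targets in T cells). Mfng, a glycosyltransferase that modifies Notch and shifts its choice of ligand, was 4.74 to 6.92 in erythroid mice and 7.76 to 8.94 in T-cell mice, a difference of -2.59 ± 0.39 (SE, limma adjusted p 0.00328). Tcf7, a transcription factor that Notch induces at the start of T-cell development, was 4.58 to 4.89 in erythroid mice and 7.11 to 9.59 in T-cell mice, a fitted difference of -4.03 ± 0.39 (SE, limma adjusted p 0.000724). It was detected on 1 of 5 erythroid arrays, so the size of its difference is measured mostly against undetected values, while Mfng was detected on 3 of 5. Il7r, the interleukin-7 receptor, differed by -2.77 ± 0.58 (SE, limma adjusted p 0.0133), and Hes6, a Hes family member, by -1.05 ± 0.27 (SE, limma adjusted p 0.0296). The T-cell marker list was lower in the same spleens, at 5.02 to 6.15 in erythroid and 7.41 to 9.40 in T-cell leukemia, and its part in these 4 differences was not tested. In the undifferentiated mouse 0 of the 47 passed in either contrast; Mfng was 4.93 and Tcf7 4.80 there, both not detected.

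In the further pathway genes mouse 5-1 was the highest T-cell mouse in 8 of the 47, where 14.9% of all genes had it highest, and the lowest in 11, where 14.3% had it lowest. Skp2, a ubiquitin ligase subunit known as a Notch target, was at least 1 log2 unit above all other T-cell mice (8.12 against 5.77 to 6.83), the 1 gene of the 47 that was, with a background of 1.28%. Psen2, a catalytic subunit of gamma-secretase, was at least 1 log2 unit below all of them (5.25 against 6.69 to 7.85), again 1 gene of 47, with a background of 1.43%. These counts are near the background. Tcf7, at 9.19, and Myc, at 8.71 against 7.81 to 8.56, were within or just above the range of the other T-cell mice.

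Mouse names begin with 2, 4 or 5, and no label states the meaning of this number. Among T-cell mice of the numbers 5, 4 and 2 (3, 2 and 2 mice), mean Notch1 was 7.14, 5.91 and 6.27 and mean Dtx1 6.94, 5.50 and 5.66, with mouse 5-1 among those of number 5. In limma's F test 0 of the 7 members passed, as did 1 of 10474 genes (0.00955%), and 0 of 7 had an unadjusted p under 0.05, against 273 of all genes. The erythroid minus T-cell difference was also compared between numbers 5 and 2 as an interaction. There 0 of 7 members and 0 genes passed in limma, with 0 members and 626 genes at an unadjusted p under 0.05.

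Over the 7 T-cell mice, the genes whose signal was most like that of Notch1 were Vangl2 (Pearson r 0.97, Spearman rho 0.54), Dusp4 (0.97, 0.79), Rpl30 (0.96, 0.86) and Pak1 (0.95, 0.82). Among the members, Dtx1 ranked 24 of all tested genes in likeness to Notch1 (r 0.92), Notch3 ranked 80 (r 0.88), and Notch2 had an r of -0.91 (rho -0.36). Without mouse 5-1 alone, r was 0.83 for Vangl2, 0.83 for Dusp4, 0.89 for Rpl30 and 0.71 for Pak1. It was then 0.62 for Dtx1, 0.15 for Notch3 and -0.49 for Notch2. The 2 mice farthest from the median were 5-1 and 4-1. Without both of them r was -0.14 for Vangl2, 0.58 for Dusp4, 0.64 for Dtx1 and 0.14 for Notch3. That of Notch2 turned to 0.87. Several of these values thus depend on 1 or both of these mice. For Nrarp the most alike were Deptor (r 0.98, rho 1.00), Zfp239 (0.97, 0.68), Myo10 (0.97, 0.89) and Ctage5 (0.97, 0.93), of which Deptor and Ctage5 kept an r of 0.96 without mice 5-1 and 5. All of these are descriptions over 7 mice that share 1 normalization, chosen as the highest among 10474 genes. Nrarp and Notch1 themselves had an r of 0.69 that turned to -0.57 without mouse 5-1.

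**Figure D4:**
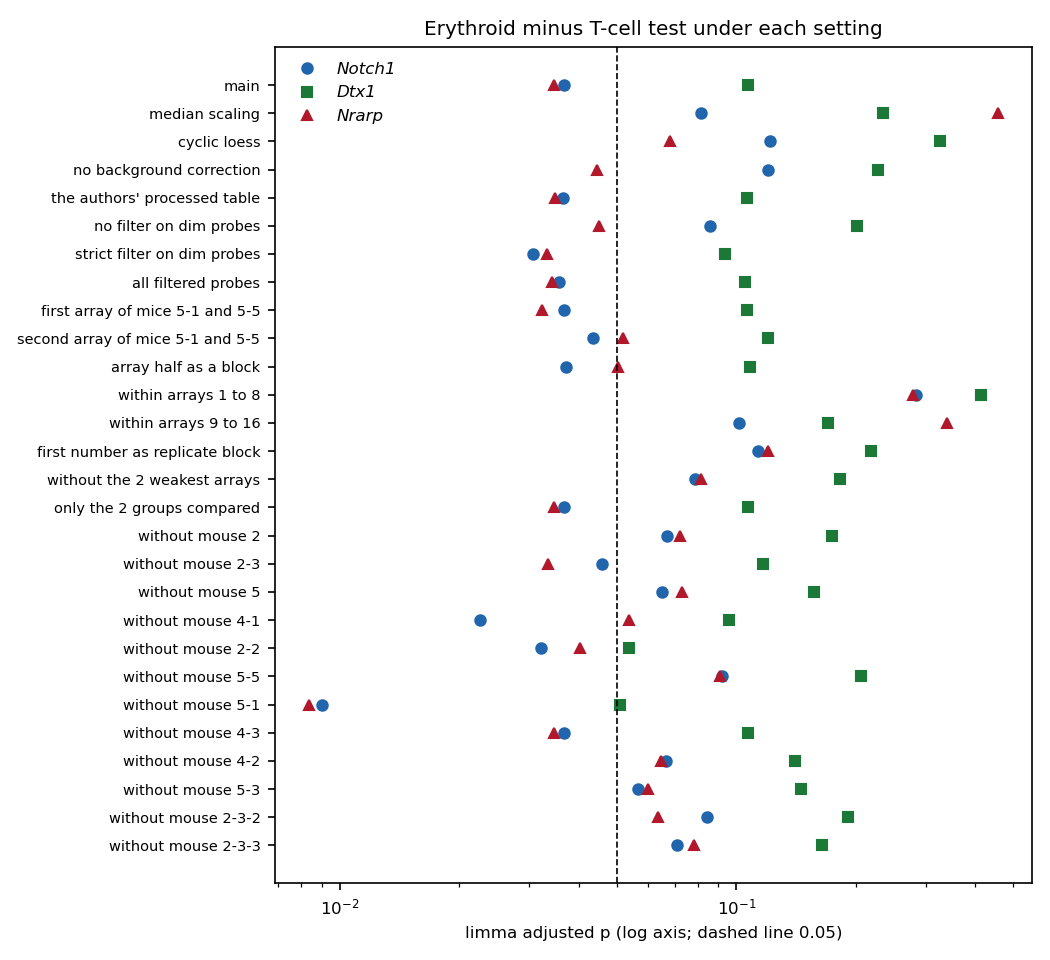
Limma adjusted p (x axis, log scale, dashed line at 0.05) of the erythroid minus T-cell difference in Notch1, Dtx1 and Nrarp under the reported setting and the 27 others (y axis). Notch1 crosses to the right of the line in 15 of the 27 and Nrarp in 16 (2 of the 27 repeat the reported values), and Dtx1 lies to the right throughout, nearest at 0.0510 without mouse 5-1.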

How the data were processed

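Illumina bead arrays of biotin-labelled cDNA from spleen RNA were used. For every probe and array the authors deposited the mean intensity over its beads, its standard error, the bead number and a detection p-value, all before normalization. The deposited table of log2 values was made with limma and R 3.0.2 per the submitters' processing notes; its columns correlated with the values used here at 0.99998 or above, and it served as an alternative. The sources used here do not name the software that summarised the beads. From the intensities, limma 3.58.1 in R 4.3.3 gave normexp background correction from the detection p-values (offset 16), quantile normalization over 15 arrays and log2. Probes with detection p under 0.05 on at least 3 of 14 labelled arrays were kept (14432 probes); each gene was tested by its brightest probe on average (10474 genes). Arrays of 1 mouse were averaged. lmFit and eBayes were fitted to 12 mice by leukemia type, with two-sided p-values and Benjamini-Hochberg adjustment over all genes at 0.05. The lone undifferentiated mouse borrows the spread of the other groups. Gene symbols were updated through RefSeq (GRCm38.p6). The test was checked on simulated data of independent normal values, with planted changes larger than that of Nrarp. They had no detection floor and no weak arrays, so this check does not cover those limits of the calls here. Bounds replace the signal of an undetected probe with the lowest detected signal of its array. The number of mice limits the precision. The members and all gene lists were chosen with earlier results of these data known. All 9 members were named. Of the other pathway genes, those past the threshold were named, up to 5 per list, plus the 4 genes most like Notch1 and Nrarp. Skp2, Psen2, Myc, Pdgfrb, Acta2, Col1a1, Tek, the dendritic cell markers and the ligands were named after their values were seen. Mice with the same first number did not deviate together (median r 0.00 over 9 erythroid and T-cell pairs), so the numbers were not taken to pair mice. Alternatives changed the background correction, scaling, filter, probes, arrays used and mice left out.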

Additional observations from a re-analysis of the deposited data

Results flagged for a closer look

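The 24 checks, each of 1 probe within the erythroid or the T-cell group, share mice and in part rest on undetected values. The genes were chosen with earlier results of these data known, so a count of flags tests nothing. In 7 of the checks 1 mouse lay far from the rest of its group. Of these, 5 concern T-cell mouse 5-1: Notch1 at 8.83 (others 5.13 to 6.69), Notch3 at 6.27 (others 4.47 to 4.94), Nrarp at 6.29 (others 4.95 to 5.53), Heyl at 5.46 (others 4.34 to 4.63), and Notch2 at 4.94, which was low (others 5.76 to 6.31). Notch3 and Heyl were detected in 0 of the 6 others. The other two are dim probes. The second Notch2 probe was 4.52 in erythroid mouse 2-3-3 (others 4.86 to 4.88), and a Rbpj probe detected on no labelled array was 4.73 in T-cell mouse 2 (others 4.29 to 4.45).

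The array without a mouse or type label entered no comparison, and it detected 6 of the 9 genes. Dtx1 was 10.37, Notch1 9.39, Nrarp 7.73, Notch3 6.85, Heyl 6.48 and Rbpj 6.55 there. For the first 5 of these the value was above that of every labelled mouse.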

How the results depend on the processing

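The count of 2 members called between erythroid and T-cell leukemia was lower in many settings, and the cause was not tested. It was 0 with median scaling, cyclic loess, in arrays 1 to 8 alone, in arrays 9 to 16 alone and with the 2 weakest arrays left out. It was 1 without background correction or without a filter on dim probes (Nrarp), and 1 with the second array of mice 5-1 and 5-5 or with the array set (1 to 8 or 9 to 16) as a block (Notch1). With the first number as a replicate block it was 0, at adjusted p-values of 0.113 for Notch1 and 0.120 for Nrarp. Leaving out 1 mouse gave 0 to 2: Notch1 lost its call without mouse 2, 5, 5-5, 4-2, 5-3, 2-3-2 or 2-3-3, and Nrarp without any of these or mouse 4-1. It stayed at 2 with the authors' table, a stricter filter, all filtered probes, the first arrays and a fit of the erythroid and T-cell groups alone. Over all settings the log2 difference was -2.63 to -0.80 for Notch1 and 0.36 to 1.07 for Nrarp. Median scaling moved the median of all genes to -0.22 and lowered the calls to 431 of 10474 genes, against 1078; Nrarp was 0.50 and Notch1 -1.82 there. Counts of members in the other 4 comparisons were 0 in every setting run. In 6 ways of making the values, the excess of mouse 5-1 over the other T-cell mice ran from 1.69 to 2.74 for Notch1, 1.81 to 3.21 for Dtx1 and 0.37 to 1.21 for Nrarp. Signal over background limits Hes1, Heyl and Notch3, and the erythroid level of Notch1.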

Other observations

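On the array without a mouse or type label the T-cell marker list had a mean log2 signal of 9.27 with 8 of 8 genes detected, and the erythroid list 6.66 with 6 of 8 detected. Among the members, Notch2, Hey1 and Hes1 were not detected on it. Over the 10474 tested genes, with 1 probe each, its values had a Pearson r of 0.70 to 0.93 with the labelled arrays. The 2 highest were 0.93 and 0.89, with the second and the first array of mouse 5-1. Over the same genes the 2 arrays of mouse 5-1 had an r of 0.97 with each other. In the further pathway genes, Skp2 was 7.85, Tcf7 9.80, Mfng 8.51, Il7r 7.66 and Pdgfrb 5.53 on it.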
